A study of Mus musculus with 70 samples.

Results

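The 9 genes described here encode the nuclear side of thyroid hormone signalling: the hormone receptors Thra and Thrb, their dimer partners Rxra, Rxrb and Rxrg, the corepressor Ncor1, the coactivators Ncoa1 and Ncoa2, and the Mediator subunit Med1. They were chosen by symbol, and all 9 were found by their Ensembl identifiers among the 38293 genes counted. In this pathway the active hormone T3 binds a receptor that sits on DNA, usually as a heterodimer with a retinoid X receptor (RXR). Without hormone the receptor holds corepressors such as NCOR1, which carry histone deacetylase activity, and with hormone it exchanges them for coactivators of the NCOA family and, through MED1, for the Mediator complex that contacts RNA polymerase. In developing brain the receptor protein made from Thra is the more abundant, and Thrb and Rxrg are restricted to fewer regions and cell types.

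The study sequenced RNA of whole mouse cerebral cortex and striatum from 5 conditions, with 7 libraries in each of 10 groups and 70 in all. MMI mice were C57BL/6J wild-type males whose dams drank water with 0.02% methimazole, which blocks hormone synthesis, and 1% perchlorate, which blocks iodide uptake, from embryonic day 9 until postnatal day 21. Dio2 double KO mice came from a double-knockout line lacking Dio2, the enzyme that makes T3 from T4 in brain, and untreated WT mice were set against these and against MMI mice. Slco1c1 double KO mice belonged to the line without Slco1c1, the gene of the T4 transporter OATP1C1, also a double knockout, and they were set against WTa mice, the wild-type mice labelled for that line. The second deleted gene is the same in both lines, so these models share that deletion. MMI and knockout mice were used at postnatal days 21 to 23, per the design text. It names neither an age for the WT and WTa groups nor a strain or sex for the knockout lines. The labels name no tissue-restricted promoter or Cre line.

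Each library held between 7802957 and 22485839 reads counted to genes. Of the targeted genes named above, Dio2 had a median of 4.79 CPM (depth-normalised read counts, TMM-scaled) in striatum of Dio2 double KO mice, against 109 CPM in WT striatum, and 6.32 CPM in cortex of Dio2 double KO mice, against 171 CPM in WT cortex. Slco1c1 reads remained in the Slco1c1 double KO line, with a median of 43.6 CPM in striatum against 84.5 CPM in WTa striatum over all 7 libraries of each. Slco1c1 in cortex had a median of 46.7 CPM in the line and 90.1 CPM in WTa mice. Counts per gene cannot show whether those reads came from a remaining part of the gene. Of the 70 libraries, 3 went against their labels or stood apart and were left out of the values below unless all 70 are named. Slco1c1 double KO libraries 7 of cortex and of striatum each sat with the opposite tissue over 297 genes that differ at least 4-fold between tissues. Cortex Slco1c1 double KO library 1 had 39.7% of alignments at several places in the genome, against 27.8% to 29.0% in the other 6 libraries of its group. The 67 libraries kept comprise 5 of cortex Slco1c1 double KO, 6 of striatum Slco1c1 double KO and 7 of every other group. Medium spiny neuron markers summed to 1950 to 4170 CPM in every striatum library kept and 72.3 to 336 CPM in every cortex library kept. Libraries were kept only where the 297 tissue genes matched the label, so this split is not a separate check of the labels.

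Thrb, Rxrb and Rxrg are the members whose transcripts fell most in the striatum below, and RefSeq gives each of them a pair of transcription starts that the counts add together. The 250 bases before each start are therefore shown, 5′ to 3′ on the plus strand of GRCm38.p6, with each AGGTCA hexamer, the receptor half-site, or its reverse complement TGACCT in capitals. The windows were, in order, chr14:17660710-17660959 and chr14:17981394-17981643 for Thrb, chr17:34031562-34031811 and chr17:34032100-34032349 for Rxrb, and chr1:167598112-167598361 and chr1:167618015-167618264 for Rxrg.
Thrb, upstream start: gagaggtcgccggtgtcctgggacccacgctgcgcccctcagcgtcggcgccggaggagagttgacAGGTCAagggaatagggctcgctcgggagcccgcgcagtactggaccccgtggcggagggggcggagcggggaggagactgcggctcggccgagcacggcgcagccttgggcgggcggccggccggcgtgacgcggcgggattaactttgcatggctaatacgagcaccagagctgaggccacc
Thrb, downstream start: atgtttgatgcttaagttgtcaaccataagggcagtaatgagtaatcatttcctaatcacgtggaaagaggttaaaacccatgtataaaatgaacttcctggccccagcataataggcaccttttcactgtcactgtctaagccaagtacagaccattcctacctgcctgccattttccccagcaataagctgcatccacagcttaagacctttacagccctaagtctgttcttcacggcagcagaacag
Rxrb, upstream start: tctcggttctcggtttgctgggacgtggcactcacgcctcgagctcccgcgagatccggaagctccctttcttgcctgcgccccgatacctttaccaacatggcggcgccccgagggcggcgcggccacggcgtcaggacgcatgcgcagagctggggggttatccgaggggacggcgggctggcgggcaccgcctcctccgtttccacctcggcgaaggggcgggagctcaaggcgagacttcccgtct
Rxrb, downstream start: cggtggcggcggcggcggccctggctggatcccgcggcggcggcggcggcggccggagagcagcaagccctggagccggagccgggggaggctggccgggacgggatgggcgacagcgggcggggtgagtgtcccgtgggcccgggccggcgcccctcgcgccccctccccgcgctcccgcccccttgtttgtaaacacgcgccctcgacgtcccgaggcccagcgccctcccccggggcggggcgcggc
Rxrg, upstream start: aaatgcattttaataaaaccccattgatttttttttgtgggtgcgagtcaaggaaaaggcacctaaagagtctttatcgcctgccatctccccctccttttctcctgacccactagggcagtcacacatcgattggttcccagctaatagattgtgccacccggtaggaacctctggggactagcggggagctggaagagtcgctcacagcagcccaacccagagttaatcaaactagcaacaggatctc
Rxrg, downstream start: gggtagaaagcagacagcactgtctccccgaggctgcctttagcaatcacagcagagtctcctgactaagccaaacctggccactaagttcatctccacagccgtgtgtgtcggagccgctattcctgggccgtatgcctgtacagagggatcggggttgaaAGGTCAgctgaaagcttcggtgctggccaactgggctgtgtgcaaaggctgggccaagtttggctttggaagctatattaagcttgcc

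The paired starts lie 320684 bases apart in Thrb, 19903 in Rxrg and 538 in Rxrb. The upstream Thrb window holds an AGGTCA whose first base is 184 bases before the start, and the downstream Rxrg window holds one at 88 bases. The other 4 windows shown hold no copy of the hexamer on either strand. The Thrb windows differ in base composition, with 71.6% G and C before the upstream start and 44.0% before the downstream one, against a median of 52.4% over all windows. RefSeq lists 12 such windows for 7 of the 9 members. The hexamer is in 3 of the 12, against 14.0% of all 32851 mouse windows searched. One of these, before the downstream start of Rxra, is not shown and holds 2 copies. Rxra was not called lower in any model comparison below. The direct repeat with a spacer of 4 bases that thyroid hormone receptors bind, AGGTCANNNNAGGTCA on either strand, was in none of the 12 and in 5 of all windows (0.0152%). These are matches of letters in a fixed window, and reads were counted per gene, so no start was measured by itself.

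Levels are compared between genes per kilobase of exon (RPKM). Thra was the most abundant member in WT striatum and in WT cortex, at 133 ± 5.03 RPKM in striatum and 179 ± 16.4 RPKM in cortex (SD, n = 7 each). Rxrg held the next place in WT striatum, at 67.4 ± 18.1 RPKM, and the last place in WT cortex, at 3.81 ± 1.93 RPKM. Thrb was the lowest member in WT striatum at 5.51 ± 0.882 RPKM, and reached 8.57 ± 0.64 RPKM in WT cortex. No WT library of either tissue had Thra within the range of any other member. Rxrb followed at 22.4 ± 0.605 RPKM in striatum and 19.5 ± 0.39 RPKM in cortex. In cortex its library range overlapped that of Ncor1, at 19.1 ± 2.18 RPKM. Rxra, Ncoa2 and Med1 lay between 5.47 and 7.29 RPKM in both tissues, with overlapping library ranges between neighbours in the order. Raw counts behind these levels ranged from 35 for Rxrg in the lowest library to 24697 for Thra in the highest, so counting error is largest for Rxrg in cortex.

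**Figure D1:**
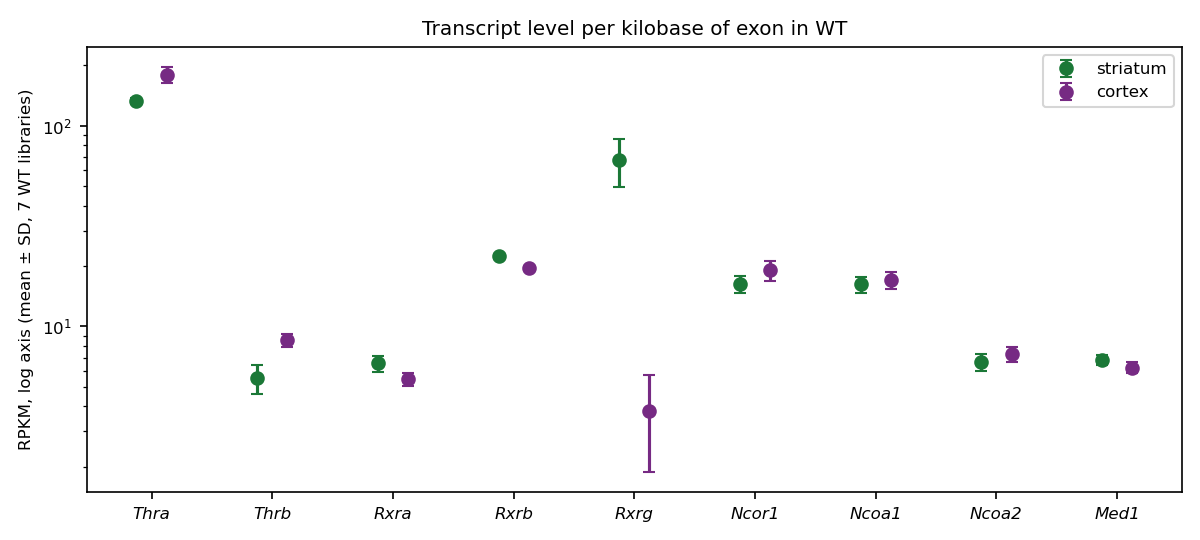
Mean RPKM (log axis) of each member in WT striatum and WT cortex, with SD over 7 libraries. Thra stands at 133 RPKM in striatum and 179 RPKM in cortex, and Rxrg at 67.4 RPKM in striatum and 3.81 RPKM in cortex.

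A gene is called where edgeR's quasi-likelihood test, adjusted after Benjamini-Hochberg over all tested genes, gave a p under 0.05. In striatum, 4 of the 9 members were called in MMI against WT mice, 1 higher and 3 lower, where 38.7% of all tested genes were called, 19% higher and 19.7% lower. In Dio2 double KO against WT striatum 4 members were called, 1 higher and 3 lower, with 21.6% of all genes, 10.5% higher and 11.1% lower. In Slco1c1 double KO against WTa striatum 2 members were called, 1 in each direction, with 25.1% of all genes, 12.1% higher and 13% lower. In cortex, 5 members were called in MMI against WT mice, 2 higher and 3 lower, where 40% of all genes were called, 19.9% higher and 20% lower. In Dio2 double KO against WT cortex 2 members were called, 1 in each direction, with 22.9% of all genes, 11.1% higher and 11.8% lower. In Slco1c1 double KO against WTa cortex 2 members were called, 1 in each direction, with 21.7% of all genes, 10.1% higher and 11.6% lower. With 9 members these counts are read only as a description, and the results lie in the individual genes. The median change over all tested genes was within 0.014 of 0 in each of these 6 comparisons. MMI and Dio2 double KO mice were set against the same WT libraries, so their results are given side by side.

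Thra (chr11:98740638-98769006, plus strand) encodes the TRα receptors, including a splice form that does not bind T3 and is counted together with the form that does. It rose in all 3 models in both tissues. In striatum its CPM had a lowest, median and highest value of 702, 740 and 801 in MMI mice, against 589, 605 and 642 in WT mice. The Dio2 double KO striatum values were 661, 770 and 883 CPM. Neither of these groups overlapped WT. In Slco1c1 double KO striatum they were 610, 660 and 725 CPM, against 552, 577 and 623 CPM in WTa striatum, where the ranges overlapped in the lowest knockout and highest WTa libraries. The log2 change was 0.31 ± 0.05 in MMI (SE, edgeR adjusted p = 4.19e-06), 0.31 ± 0.05 in Dio2 double KO (adjusted p = 9.08e-06) and 0.20 ± 0.05 in Slco1c1 double KO striatum (adjusted p = 0.00325).

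In cortex Thra stood at 1160, 1210 and 1360 CPM (lowest, median, highest) in MMI mice and 1020, 1130 and 1310 CPM in Dio2 double KO mice, against 740, 810 and 938 CPM in WT mice. The 5 Slco1c1 double KO cortex libraries kept had 1000, 1020, 976, 958 and 1060 CPM, against 770, 800 and 884 CPM (lowest, median, highest) in WTa mice. In each of the 3 cortex comparisons every model library lay above every control library. The log2 change was 0.58 ± 0.05 in MMI (edgeR adjusted p = 4.32e-12), 0.48 ± 0.05 in Dio2 double KO (adjusted p = 1.21e-09) and 0.31 ± 0.05 in Slco1c1 double KO cortex (adjusted p = 4.16e-05). With all 70 libraries the Slco1c1 double KO cortex change was 0.16 and not called (adjusted p = 0.23). The cortex libraries left out had 692 and 621 CPM. Groups not overlapping were found for 3 members in MMI striatum (15.2% of all genes), 2 in Dio2 double KO striatum (5.57%), none in Slco1c1 double KO striatum (11% of all genes), 2 in MMI cortex (14.3%), 1 in Dio2 double KO cortex (5.45%) and 1 in Slco1c1 double KO cortex (11.9%).

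Nr1d1 runs on the opposite strand and shares 263 bases with Thra exons, or 5.7% of their length. The kit did not mark strand, so strand cannot assign reads of that stretch to either gene. The deposited counts hold a separate line for ambiguous reads. Whether reads of the shared stretch went there or into the Thra counts was not tested. Nr1d1, which encodes the clock repressor REV-ERBα, was not called in MMI striatum (log2 change -0.0039, adjusted p = 0.969) or MMI cortex (-0.0041, adjusted p = 0.972). It was not called in Dio2 double KO striatum (-0.01, adjusted p = 0.942) or cortex (0.04, adjusted p = 0.741). It rose in Slco1c1 double KO striatum by 0.26 ± 0.07 (adjusted p = 0.00381) and in Slco1c1 double KO cortex by 0.26 ± 0.08 (adjusted p = 0.012). Nr1d2, the neighbour of Thrb at a distance of 165963 bases, was called in none of these 6 comparisons.

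Cell type markers moved beside Thra in cortex. All 5 oligodendrocyte markers were lower in each model, and their summed CPM ranged from 4400 to 6720 in MMI and from 3680 to 6310 in Dio2 double KO cortex, against 8000 to 10500 in WT cortex. The sums ranged from 4650 to 5820 CPM in Slco1c1 double KO cortex, against 7410 to 8770 CPM in WTa cortex. All 5 microglia markers were higher in MMI and Dio2 double KO cortex, with sums of 312 to 382 CPM in MMI and 268 to 363 CPM in Dio2 double KO cortex, against 243 to 319 CPM in WT cortex. No oligodendrocyte or microglia marker was at 0 in any group. No microglia marker was higher and 1 was lower in Slco1c1 double KO cortex, with sums of 263 to 317 CPM, against 264 to 288 CPM in WTa cortex. In striatum 3 of the 5 oligodendrocyte markers were lower in MMI and all 5 in Dio2 double KO and in Slco1c1 double KO mice, while 4, 3 and 3 of the 5 microglia markers were higher in the same order of models. Of the other lists, all 5 erythroid markers were lower in MMI cortex and MMI striatum and in Slco1c1 double KO cortex. In MMI cortex 3 of 4 endothelial markers and 2 of 4 mural and leptomeningeal markers were higher, and in MMI striatum 2 of 4 of each list. Of 5 interneuron markers, 3 were lower and 1 was higher in cortex of each model. Of 5 neuron markers, 2 were lower and 3 were not called in cortex of each model. The neuron marker sums ranged from 5020 to 5570 CPM in MMI cortex, against 5500 to 6920 CPM in WT cortex. The part of any of these lists in the Thra result was not tested.

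Thrb (chr14:17660261-18038090, plus strand) encodes the TRβ receptors. It moved opposite to Thra where it was called. Striatum values were 27.0, 28.9 and 36.6 CPM (lowest, median, highest) in MMI mice and 23.5, 33.7 and 36.2 CPM in Dio2 double KO mice, against 34.0, 41.1 and 52.4 CPM in WT mice. All 7 libraries of each model lay below the WT mean, with overlapping ranges. Thrb fell in striatum by 0.41 ± 0.09 on the log2 scale in MMI (edgeR adjusted p = 0.000535) and by 0.32 ± 0.09 in Dio2 double KO mice (adjusted p = 0.00918). The Dio2 double KO call was lost at an unchanged size when striatum Slco1c1 double KO library 7, which enters only the shared estimate of spread, was included (adjusted p = 0.0506). In Slco1c1 double KO striatum Thrb had 34.4, 41.3 and 49.7 CPM, against 35.7, 42.9 and 45.0 CPM in WTa striatum. That difference of -0.04 (95% interval -0.22 to 0.15) was not called.

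In cortex Thrb values were 44.6, 55.8 and 60.5 CPM in MMI mice and 47.5, 59.5 and 76.8 CPM in Dio2 double KO mice, against 58.0, 63.1 and 71.5 CPM in WT mice. Thrb fell in MMI cortex by 0.23 ± 0.07 (adjusted p = 0.00635). With all 70 libraries that adjusted p was 0.113, and with the libraries numbered 7 included but cortex library 1 left out it was 0.074, both at the same change. The Dio2 double KO change of -0.04 (95% interval -0.18 to 0.09) and the Slco1c1 double KO change of 0.11 (-0.04 to 0.25) in cortex were not called. Taken per length within each library, Thra exceeded Thrb 40.0 ± 5.80-fold in MMI and 38.6 ± 10.3-fold in Dio2 double KO striatum, against 24.6 ± 3.78-fold in WT striatum (SD, n = 7 each). In cortex the ratio was 37.1 ± 5.73 in MMI and 30.7 ± 6.57 in Dio2 double KO mice, against 21.0 ± 3.0 in WT mice. The MMI ratios did not overlap WT in either tissue. In striatum the Dio2 double KO ratios did not overlap WT either, with a lowest of 30.2 against a WT highest of 29.5. In cortex they did overlap WT. In Slco1c1 double KO mice the ratio was 26.3 ± 3.44 in striatum (n = 6) against 22.1 ± 2.20 in WTa striatum, and 22.3 ± 1.20 in cortex (n = 5) against 19.5 ± 2.02 in WTa cortex, with overlapping libraries.

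**Figure D2:**
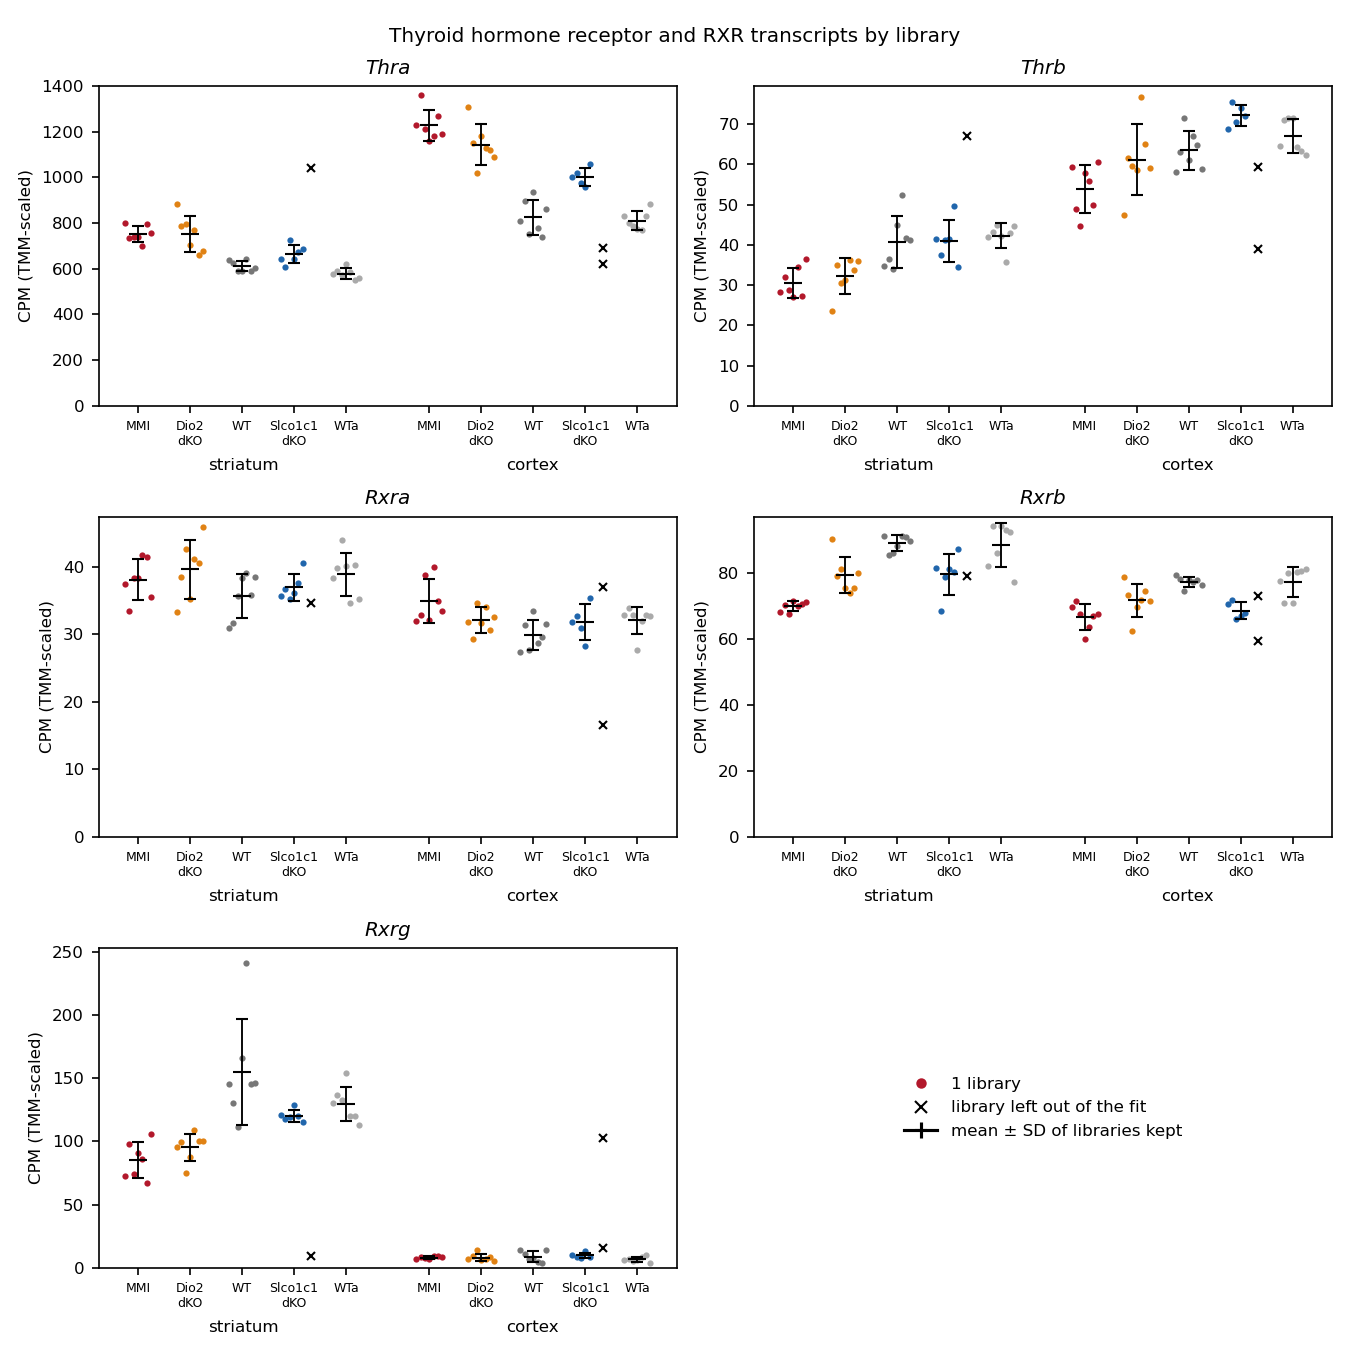
CPM (linear axis from 0) of the receptor and RXR transcripts in each library, by condition, striatum left and cortex right; bars give mean and SD of the libraries kept and crosses the 3 libraries left out. Thra is higher in each model than in its control, and Rxrg reads are mostly in striatum, where MMI libraries sit at 67.3 to 106 CPM and WT libraries at 111 to 241 CPM.

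The 3 RXR genes encode the partners of the thyroid hormone receptors on DNA. Rxrb (chr17:34031812-34038399, plus strand), the widely expressed form, fell in all 3 models in striatum. Its striatum values were 67.5, 70.2 and 71.5 CPM (lowest, median, highest) in MMI and 73.8, 79.0 and 90.1 CPM in Dio2 double KO mice, against 85.5, 89.6 and 91.2 CPM in WT mice. The MMI libraries all lay below the WT libraries. The change was -0.34 ± 0.05 in MMI (adjusted p = 4.26e-07) and -0.16 ± 0.05 in Dio2 double KO striatum (adjusted p = 0.0158). With the replicate number as a block the Dio2 double KO change was -0.14 and not called (adjusted p = 0.0887). Slco1c1 double KO striatum had 68.4, 80.7 and 87.1 CPM, against 77.3, 92.4 and 94.0 CPM in WTa striatum. That change was -0.15 ± 0.05 (adjusted p = 0.0266), and it was lost without a filter on low counts (adjusted p = 0.0583) or when only these groups were fitted (adjusted p = 0.0557).

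In cortex Rxrb values were 59.8, 67.5 and 71.5 CPM in MMI and 62.4, 71.6 and 78.7 CPM in Dio2 double KO mice, against 74.5, 77.8 and 79.4 CPM in WT mice. The 5 Slco1c1 double KO cortex libraries had 70.6, 71.6, 65.9, 66.9 and 67.7 CPM, against 70.8, 80.0 and 81.0 CPM (lowest, median, highest) in WTa cortex. Rxrb fell in MMI cortex by 0.21 ± 0.05 (adjusted p = 0.00023), with no overlap, and in Slco1c1 double KO cortex by 0.17 ± 0.05 (adjusted p = 0.0114). With all 70 libraries the Slco1c1 double KO cortex change was -0.18 and called (adjusted p = 0.0178). The Dio2 double KO change in cortex was -0.10 ± 0.05 and not called (adjusted p = 0.114).

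Rxra (chr2:27676440-27762957, plus strand), the form best known from liver and skin, was called only in MMI cortex, where it rose. Cortex values were 32.0, 33.5 and 40.0 CPM in MMI, against 27.3, 29.6 and 33.4 CPM in WT mice. The change was 0.22 ± 0.06 (adjusted p = 0.00257), with all 7 MMI libraries above the WT mean but overlapping ranges. It was not called with all 70 libraries (adjusted p = 0.0978) or with cortex library 1 included and those numbered 7 left out (adjusted p = 0.0779). Its other model changes lay between -0.07 in Slco1c1 double KO striatum and 0.16 in Dio2 double KO striatum (adjusted p = 0.078), none called. Differences between these changes were not all tested; those between tissues are given below.

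Rxrg (chr1:167598384-167639623, plus strand), known in brain from striatal medium spiny neurons, fell most among the members. In striatum MMI libraries had 67.3, 86.3 and 106 CPM (lowest, median, highest) and Dio2 double KO libraries 75.3, 99.2 and 109 CPM, against 111, 145 and 241 CPM in WT libraries. Neither model overlapped WT, although the gap was narrow, at 109 against 111 CPM for Dio2 double KO. The log2 change was -0.86 ± 0.12 in MMI (0.553-fold, edgeR adjusted p = 4.27e-07) and -0.69 ± 0.12 in Dio2 double KO striatum (0.621-fold, adjusted p = 3.19e-05). WT library 7, at 241 CPM, stood above the other 6, which ranged from 111 to 166 CPM. Without it the change was -0.71 in MMI (adjusted p = 1.28e-07) and -0.55 in Dio2 double KO striatum (adjusted p = 2.78e-05). With striatum Slco1c1 double KO library 7 included, which had 9.58 CPM, the Dio2 double KO call was lost at an unchanged size (adjusted p = 0.0735). Slco1c1 double KO striatum had 115, 120 and 129 CPM, against 113, 130 and 154 CPM in WTa striatum, a change of -0.10 (95% interval -0.34 to 0.13) that was not called.

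The markers of medium spiny neurons (Drd1, Drd2, Adora2a, Ppp1r1b and Rgs9) moved with Rxrg. All 5 fell in MMI and in Dio2 double KO striatum, and 3 of the 5 in Slco1c1 double KO striatum. Their summed CPM ranged from 1950 to 2500 in MMI and from 2140 to 2900 in Dio2 double KO striatum, against 3080 to 4170 in WT striatum. It ranged from 2550 to 2870 in Slco1c1 double KO striatum, against 2800 to 3390 in WTa striatum. None of the 5 was at 0. For every 100 CPM of these markers there were 3.76 ± 0.342 CPM of Rxrg in MMI (n = 7) and 3.79 ± 0.729 CPM in Dio2 double KO striatum (n = 7), against 4.21 ± 0.75 CPM in WT striatum (SD, n = 7). The ratio was 4.38 ± 0.206 CPM in Slco1c1 double KO (n = 6), against 4.11 ± 0.399 CPM in WTa striatum (n = 7). WT library 7 had the highest ratio, 5.79 CPM, and without it the WT ratio was 3.94 ± 0.298 CPM (n = 6). The mean ratios of MMI and Dio2 double KO striatum lay below the WT mean with and without that library, with overlapping library ranges. Neither the ratio nor the part of these markers in the Rxrg result was tested. In bulk tissue, fewer cells of a type and less RNA per cell cannot be told apart.

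**Figure D3:**
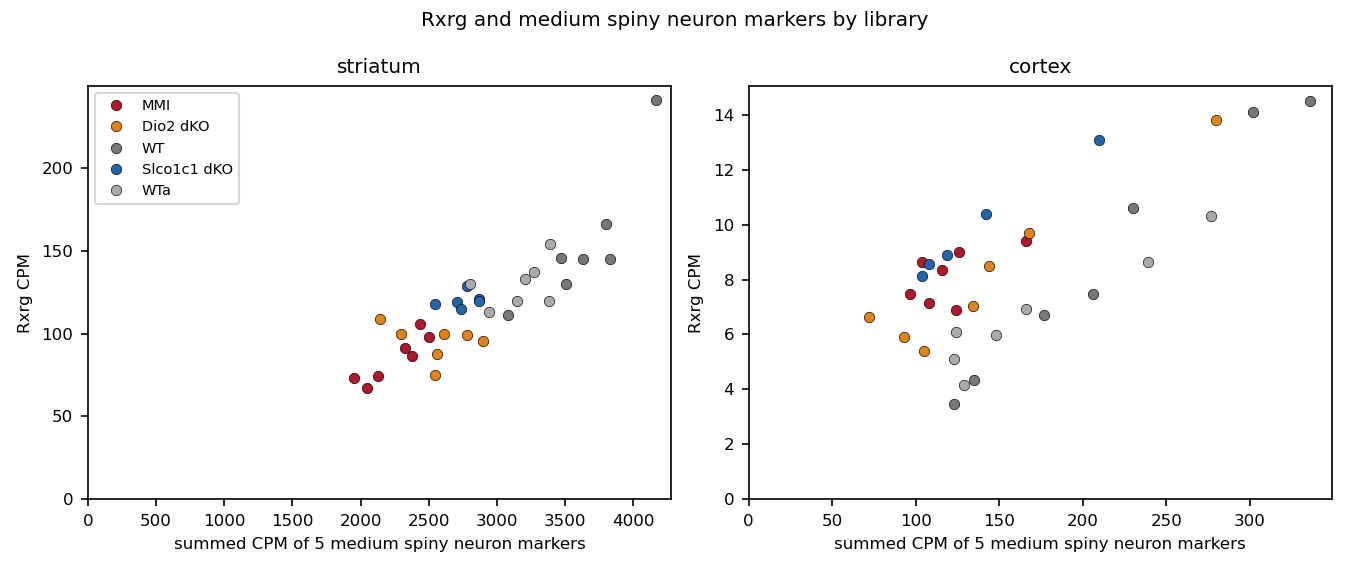
Rxrg CPM against the summed CPM of 5 medium spiny neuron markers, a point for each library kept, striatum left and cortex right (linear axes of different range). MMI and Dio2 double KO striatum lie at low values of both, and WT library 7, at 241 CPM of Rxrg, has the highest marker sum, 4170 CPM.

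In cortex Rxrg was near the low end of the table. It had 6.90, 8.34 and 9.39 CPM in MMI and 5.40, 7.04 and 13.8 CPM in Dio2 double KO mice, against 3.47, 7.47 and 14.5 CPM in WT mice. Neither change was called, at -0.09 (95% interval -0.59 to 0.40) and -0.08 (-0.58 to 0.42). The 5 Slco1c1 double KO cortex libraries had 10.4, 8.90, 8.14, 13.1 and 8.55 CPM, against 4.14, 6.08 and 10.3 CPM (lowest, median, highest) in WTa cortex. Their change of 0.56 ± 0.27 was not called (adjusted p = 0.155), though it was when only these groups were fitted (adjusted p = 0.0251). With all 70 libraries it was 1.82 (adjusted p = 0.00452). Cortex library 7, whose tissue genes match striatum, held 103 CPM and cortex library 1 held 15.4 CPM.

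Rxrg was also set against the medium spiny neuron markers in cortex. For every 100 CPM of these markers, control cortex had a mean of 3.86 CPM of Rxrg in WT and 3.97 CPM in WTa mice. The means in control striatum were 4.21 CPM in WT and 4.11 CPM in WTa mice. The marker sum ranged from 96.7 to 166 CPM in MMI and from 72.3 to 280 CPM in Dio2 double KO cortex, against 123 to 336 CPM in WT cortex, and from 104 to 210 CPM in Slco1c1 double KO cortex, against 123 to 277 CPM in WTa cortex. For every 100 CPM of these markers there were 5.56 to 8.31 CPM of Rxrg in MMI and 4.93 to 9.17 CPM in Dio2 double KO cortex, against 2.82 to 4.67 CPM in WT cortex. The ratio was 6.25 to 7.93 CPM in Slco1c1 double KO cortex, against 3.20 to 4.90 CPM in WTa cortex. The ratio was thus higher in every model library than in every control library in cortex, where both of its parts are low, and it was not tested. Rxrg itself was not called in cortex of any model, as given above. Of the markers in the sum, only Ppp1r1b was called lower in MMI and in Dio2 double KO cortex, and none in Slco1c1 double KO cortex.

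The RXR family is next given as shares and as a sum, which follow from the levels above and were not tested. Rxrg made up 59.8 ± 4.17% of summed RXR RPKM in MMI and 60.3 ± 3.38% in Dio2 double KO striatum, against 69.3 ± 4.43% in WT striatum (SD, n = 7 each). The RXR sum was 61.6 ± 6.08 RPKM in MMI and 68.7 ± 4.6 RPKM in Dio2 double KO striatum, against 96.4 ± 18.8 RPKM in WT striatum. All libraries of both models lay below all WT libraries for the sum. In cortex Rxrb carried the larger part, with 62.8 ± 2.51% in MMI and 65.7 ± 4.45% in Dio2 double KO, against 68.0 ± 4.6% in WT cortex. The cortex RXR sum was 26.7 ± 1.28 RPKM in MMI and 27.5 ± 1.03 RPKM in Dio2 double KO, against 28.7 ± 2.14 RPKM in WT mice, with overlapping libraries.

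**Figure D4:**
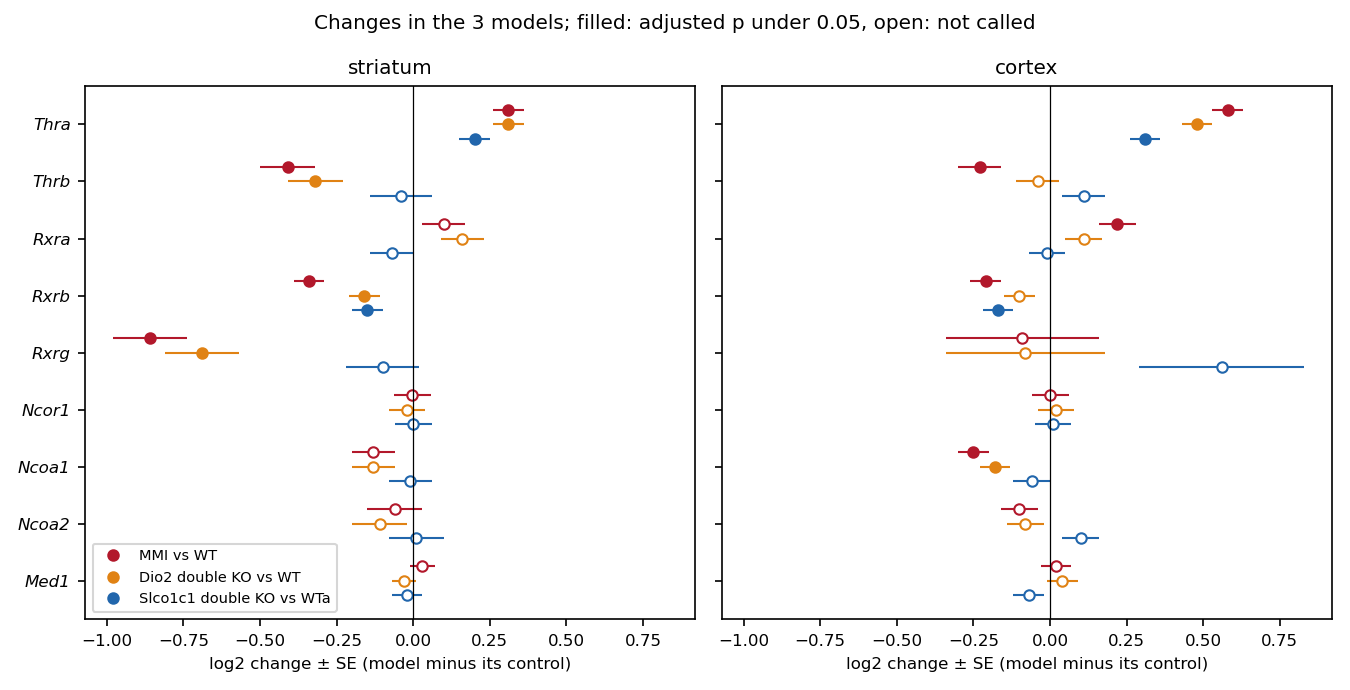
Log2 change with SE of the 9 members in each model against its control, striatum left and cortex right; filled points have an adjusted p under 0.05. Thra lies right of 0 in all 6 comparisons, between 0.20 and 0.58, and Rxrg lies farthest left in striatum, at -0.86 in MMI and -0.69 in Dio2 double KO.

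Of the 4 cofactors, only Ncoa1 was called in any of the 6 model comparisons. Ncor1 (chr11:62316426-62458541, minus strand), the corepressor that recruits HDAC3, was called in none of the 6 model comparisons. Its striatum values were 191, 206 and 218 CPM (lowest, median, highest) in MMI and 168, 214 and 224 CPM in Dio2 double KO, against 172, 206 and 227 CPM in WT mice. In cortex they were 234, 242 and 254 CPM in MMI and 204, 248 and 281 CPM in Dio2 double KO, against 205, 251 and 279 CPM in WT mice. The 95% intervals of its 6 model changes all lay between -0.13 and 0.14 on the log2 scale.

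Ncoa1 (chr12:4247362-4477182, minus strand), a p160 coactivator that binds hormone-bound receptors, fell in cortex of MMI and of Dio2 double KO mice. Its cortex values were 115, 123 and 128 CPM in MMI and 109, 131 and 143 CPM in Dio2 double KO, against 125, 146 and 161 CPM in WT mice. The change was -0.25 ± 0.05 in MMI (adjusted p = 0.000202) and -0.18 ± 0.05 in Dio2 double KO cortex (adjusted p = 0.0102). The ranges overlapped WT in both. The Dio2 double KO call was lost at the same size with all 70 libraries (adjusted p = 0.246), with cortex library 1 included and those numbered 7 left out (adjusted p = 0.203), and when only these groups were fitted (adjusted p = 0.0581). In striatum the changes of -0.13 ± 0.07 in MMI (adjusted p = 0.144) and in Dio2 double KO (adjusted p = 0.183) were not called. In Slco1c1 double KO mice the change was -0.01 (95% interval -0.16 to 0.13) in striatum and -0.06 (-0.18 to 0.05) in cortex.

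Ncoa2 (chr1:13139105-13374083, minus strand), the related coactivator, was called in no model comparison, with changes between -0.11 in Dio2 double KO striatum and 0.10 in Slco1c1 double KO cortex. Its widest group was Dio2 double KO striatum, with 68.2, 97.7 and 119 CPM, against 85.8, 108 and 113 CPM in WT striatum. Low libraries of Ncor1, Ncoa1 and Ncoa2 were set beside the share of alignments at several places in the genome. Med1, whose exons are longer in sum than those of Ncoa1, was not included. In 7 of the 10 groups the library lowest in Ncoa1 was the one with the highest such share. So it was in 7 groups for Ncor1 and in 5 for Ncoa2. None of these genes matched in cortex WT or cortex Slco1c1 double KO. How often such a match occurs over all genes, or in the other members, was not computed. Striatum Dio2 double KO library 1 was lowest for all 3 in its group, with 168, 95.6 and 68.2 CPM of Ncor1, Ncoa1 and Ncoa2, and had a share of 31.8%, against a group median of 29.1%. The part of this share in the Ncoa1 result was not tested; its group medians in cortex were 28.5% in MMI, 28.5% in Dio2 double KO and 28.6% in WT mice.

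Med1 (chr11:98152154-98193293, minus strand), the Mediator subunit that contacts nuclear receptors, was called in none of the model comparisons, with changes between -0.07 and 0.04. It was the member that set the control groups apart. Striatum values were 62.6, 68.8 and 74.0 CPM in WTa mice, against 54.9, 58.6 and 64.1 CPM in WT mice. In cortex they were 58.4, 62.6 and 64.7 CPM in WTa, against 51.7, 53.4 and 61.4 CPM in WT mice. Med1 was higher in WTa by 0.20 ± 0.04 in striatum (adjusted p = 0.00331) and by 0.18 ± 0.05 in cortex (adjusted p = 0.0208). It was the only member called between the control groups, where 11% of all genes were called in striatum and 6.71% in cortex. The cortex call was lost with all 70 libraries (adjusted p = 0.261), with either cortex library 1 or those numbered 7 included (adjusted p = 0.113 and 0.0722), and with the replicate number as a block (change 0.15, adjusted p = 0.125). The line, and any date or handling the labels do not give, cannot be told apart between these groups.

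**Figure D5:**
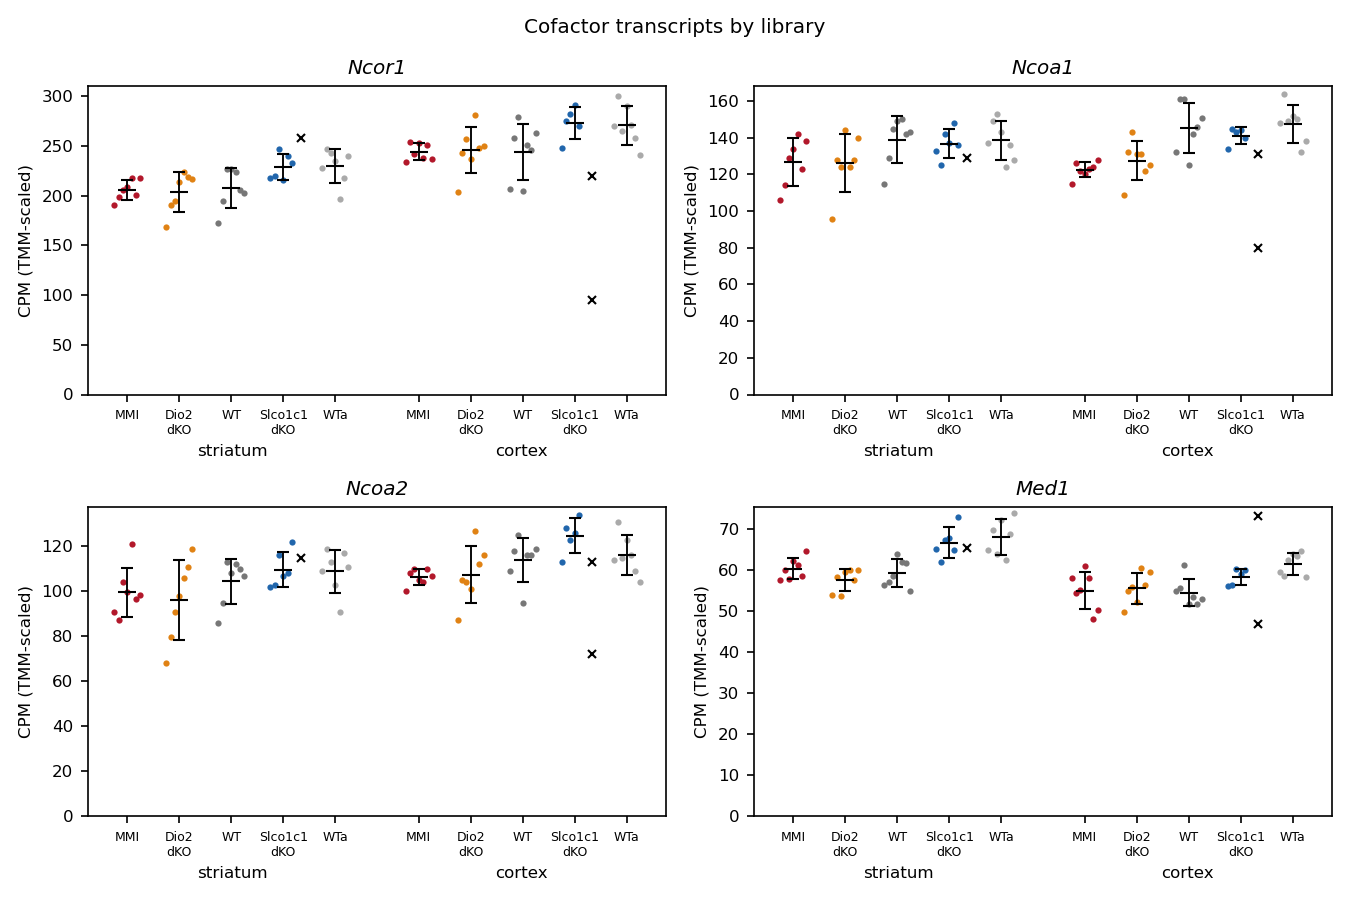
CPM (linear axis from 0) of the cofactor transcripts in each library, by condition, striatum left and cortex right; bars give mean and SD of the libraries kept and crosses the 3 libraries left out. Ncoa1 in MMI cortex lies at 115 to 128 CPM, against 125 to 161 CPM in WT cortex, and Med1 is higher in WTa than in WT.

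Set directly against each other, Dio2 double KO and MMI mice differed in 1 member in striatum, where 12.3% of all genes were called, and in none in cortex, where 11% were called. Rxrb was higher in Dio2 double KO than in MMI striatum, at 73.8 to 90.1 CPM against 67.5 to 71.5 CPM, with no overlap (2.65% of all genes did not overlap). The difference was 0.18 ± 0.05 (adjusted p = 0.00879). Thra differed by 0.0018 (95% interval -0.10 to 0.10) in striatum and by -0.09 (-0.19 to 0.00) in cortex. Rxrg differed by 0.17 (-0.06 to 0.40) in striatum and Thrb by 0.19 (0.05 to 0.32, adjusted p = 0.0687) in cortex, neither called.

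Between tissues, 7 of the 9 members were called in WT mice and the same number in WTa mice, where 61.3% and 58.3% of all genes were called. In WT mice Rxrg was higher in striatum, at 111 to 241 CPM against 3.47 to 14.5 CPM in cortex, a 17.9-fold difference (log2 4.16 ± 0.19, adjusted p = 3.28e-28). Thra was lower in WT striatum by 0.43 ± 0.05 (adjusted p = 1.6e-11) and Thrb by 0.64 ± 0.08 (adjusted p = 6.81e-10), and neither gene's libraries overlapped between tissues. Rxrb was higher in striatum by 0.20 ± 0.05 (adjusted p = 8e-05) and Rxra by 0.25 ± 0.06 (adjusted p = 0.000384). Thus both hormone receptor genes had more transcript in cortex and all 3 RXR genes more in striatum. Ncor1 was lower in WT striatum by 0.23 ± 0.06 (adjusted p = 0.000737), and Med1 higher by 0.12 ± 0.05 (adjusted p = 0.0179, and 0.0504 with all 70 libraries). Ncoa1 (-0.07, 95% interval -0.19 to 0.06) and Ncoa2 (-0.13, -0.28 to 0.02) were not called, though with the animal number as a block Ncoa2 was (adjusted p = 0.0401). In WTa mice Rxrg differed by 4.29 ± 0.19, Thra by -0.49 ± 0.05 and Thrb by -0.67 ± 0.08. In WT mice 4 members and in WTa mice 4 members did not overlap between tissues, against 32.1% and 33.7% of all genes.

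Whether a model's change differed between tissues was tested as an interaction. As in the tissue comparison above, the fit used groups only and did not pair the cortex and striatum of an animal. For MMI, 1 member was called, against 7.72% of all genes. The Thra change was smaller in striatum than in cortex by 0.27 ± 0.07 on the log2 scale (-0.27, adjusted p = 0.00674), that is 0.31 in striatum and 0.58 in cortex. This call was lost at a nearly unchanged size with all 70 libraries (adjusted p = 0.30) and with those numbered 7 included (-0.28, adjusted p = 0.18). The MMI change of Rxrg was lower in striatum by 0.77 ± 0.26, which missed the threshold (adjusted p = 0.0587). No member was called for Dio2 double KO, against 4.09% of all genes, or for Slco1c1 double KO, against 2.96%. The unadjusted 95% interval for Thra was -0.31 to -0.03 in Dio2 double KO (adjusted p = 0.23) and -0.26 to 0.04 in Slco1c1 double KO (adjusted p = 0.62). With all 70 libraries the Rxrg interaction in Slco1c1 double KO was called at -2.13 (adjusted p = 0.0118), from the libraries numbered 7 whose tissue genes go against their labels.

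Other genes of the same machinery came from lists chosen with earlier results of these data known, and their counts stand beside the shares of all genes called that are given above. The direct hormone targets Hr, which encodes a corepressor of the receptors, and Klf9, a transcription factor, were lower in every model and tissue. Hr changed by -1.40 in MMI, -1.22 in Dio2 double KO and -1.10 in Slco1c1 double KO striatum, and by -2.53, -2.0 and -2.16 in the same order in cortex. Klf9 changed by -0.72, -0.52 and -0.89 in striatum and by -0.70, -0.41 and -0.73 in cortex in that order, and all 12 of these changes were called. The controls differed in these targets too. Klf9 was called higher in WTa than in WT mice in both tissues, and Hr was called lower in WTa striatum. Sizes in Slco1c1 double KO mice, taken against WTa, therefore have another base than those of the other models. No member changed as much as Hr in any of the 6 comparisons.

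Of the 12 corepressor complex genes, 2 rose and 1 fell in MMI striatum (median change 0.036, against 0.01 over all genes), and 3 rose and 3 fell in MMI cortex (median 0.078, against 0.014). Besides Hr, the histone deacetylase Hdac3 rose by 0.18 ± 0.05 in MMI striatum (adjusted p = 0.00207) and by 0.16 ± 0.04 in MMI cortex (adjusted p = 0.00275). In Dio2 double KO mice 3 rose and 2 fell in striatum and 3 rose and 1 fell in cortex, and in Slco1c1 double KO mice 1 rose and 2 fell in striatum and 1 rose and 1 fell in cortex. Of 12 tested coactivators and histone-modifying partners, 2 rose and 1 fell in MMI striatum (median 0.032) and 3 rose and 2 fell in MMI cortex (median -0.032). In Dio2 double KO mice 1 rose and 3 fell in striatum and 1 rose and 1 fell in cortex, and in Slco1c1 double KO mice 2 rose and 2 fell in striatum and 1 rose and 1 fell in cortex. The gene with the smallest p in each of the 6 comparisons was Ppargc1a, a coactivator known for mitochondrial gene programmes. Ppargc1a fell by 0.70 ± 0.09 in MMI, 0.65 ± 0.09 in Dio2 double KO and 0.59 ± 0.10 in Slco1c1 double KO striatum. In cortex it fell by 0.58 ± 0.08, 0.51 ± 0.08 and 0.30 ± 0.09 in the same order of models. All 6 changes were called, with adjusted p between 9.57e-08 and 0.00989.

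Of 31 other Mediator genes tested, 6 rose and 3 fell in MMI striatum (median 0.015) and 6 rose and 6 fell in MMI cortex (median 0.043), beside 38.7% and 40% of all genes called, while Med1 itself was called in neither. Med23, a tail subunit, rose by 0.29 ± 0.05 in MMI striatum (adjusted p = 2.08e-06) and by 0.39 ± 0.05 in MMI cortex (adjusted p = 1.14e-07). In Dio2 double KO mice 2 rose and 2 fell in striatum and 6 rose and 2 fell in cortex, and in Slco1c1 double KO mice 5 rose and 2 fell in striatum and 2 rose and 2 fell in cortex. Cdk19, a kinase of the Mediator kinase module, fell by 0.27 ± 0.04 in MMI striatum (adjusted p = 9.55e-07) and by 0.24 ± 0.04 in Dio2 double KO striatum (adjusted p = 1.93e-05). Of the other nuclear receptors that pair with RXR, none rose and 4 fell in MMI striatum (9 of 11 tested, median -0.316, against 0.01 over all genes) and in MMI cortex (10 of 11 tested, median -0.345, against 0.014). Ppard, a fatty acid sensor, fell by 0.24 ± 0.07 in MMI striatum (adjusted p = 0.00639) and by 0.42 ± 0.07 in MMI cortex (adjusted p = 1.21e-05). Rarb, a retinoic acid receptor, fell by 0.36 ± 0.08 in MMI striatum (adjusted p = 0.000511) and by 0.62 ± 0.18 in MMI cortex (adjusted p = 0.0055). Pparg fell by 0.66 ± 0.15 in MMI cortex (adjusted p = 0.000544). In Dio2 double KO mice none rose and 2 fell in each tissue, and in Slco1c1 double KO mice 1 rose and 2 fell in striatum and none rose and 2 fell in cortex. Ppard also fell in Slco1c1 double KO striatum, by 0.39 ± 0.08 (adjusted p = 0.000221), while the orphan receptor Nr4a1 rose by 1.16 ± 0.30 (adjusted p = 0.00417). That rise is against WTa striatum, and Nr4a1 was itself called lower in WTa than in WT mice in both tissues.

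Patterns across the 10 group means were also compared with those of 11965 genes, as a description, and the points share libraries and depth. For Rxrg most of the spread lies between tissues, while for Ncoa1 and Rxrb the group means of cortex and striatum overlap. Thra was most like Suv39h1 (Pearson r = 0.994), Hsbp1 (0.990) and Fxyd6 (0.987). Thrb was most like Herc2 (0.996), Sorbs2 (0.993) and Upp2 (0.990). Rxrg was most like Zswim6 (0.999), Bcl11b (0.999) and Shb (0.998). The best matches named of the other members had r between 0.967 and 0.990, with Nek1 for Ncor1, Cntn2 for Rxrb, Ccar1 for Rxra, Ddhd1 for Ncoa1 and Vps39 for Med1.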

How the data were processed

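The kit, which took 500 ng of total RNA, does not mark strand, and single reads of 75 bases were made, per the labels. The submitters' processing notes name TopHat, Bowtie, HTSeq, edgeR, CASAVA and FastQC, and the build GRCm38, with no version or setting known here. The authors deposited raw counts, without normalization, for 38293 genes, followed by 5 lines of unassigned reads that were left out of library sizes and tests. The line for no feature held 8.00% to 11.8% and that for ambiguous reads 1.53% to 1.70% of a kept library, beside 27.5% to 31.8% of non-unique alignments. Symbols, positions and exon lengths came from GENCODE M21, which held 36345 of the identifiers; the 9 members were matched by identifier.

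CPM and log2 changes were computed here with edgeR 4.0.16 in R 4.3.3 (TMM scaling, filterByExpr, robust quasi-likelihood F tests), with Benjamini-Hochberg adjustment over all 16415 genes tested in cortex, 16325 in striatum or 16977 in both. Each tissue was fitted over all of its kept groups, and comparisons between tissues over all 67 kept libraries. SE was taken from the change and its F value (size over root of F), and 95% intervals are the change ± 1.96 SE, unadjusted. CPM in single libraries was scaled over all 70 libraries, and log2 CPM used a prior count of 2. Figures were drawn with matplotlib 3.10.9. The fit was tested on simulated counts. No library repeated another: for genes with at least 10 counts, chi-square over its degrees of freedom was 2.21 or more in all 210 pairs within groups. The titles number the animals but do not say which samples came from separate litters, and p-values measure the spread between these libraries.

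Members, lists and tests were chosen with earlier results of these data known. The text names the 9 members, up to 3 called genes with the smallest p from each pathway list in a model comparison, Hr, Klf9, Nr1d1 and Nr1d2, and the genes most like a member among those with a mean of at least 5 CPM. Replicate numbers paired no groups within a tissue; across tissues the same number in the titles marks the same animal, and the deviations of same-numbered libraries correlated at 0.017 to 0.421. Alternatives were all 70 libraries as labelled, leaving out the 3 libraries in part, RLE scaling, DESeq2 1.42.0, no filter, a replicate block, only the compared groups, and leaving out single libraries. The remaining targeted gene of the double-knockout lines is not reported here.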

Additional observations from a re-analysis of the deposited data

Results flagged for a closer look

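Each member's CPM was checked in its 10 groups, 90 sets in all, for a library whose gap to the nearest other library was large against the group's range; chance gives about 1 in 20 such groups, and 5 were found. Thrb in striatum WTa library 5 was lowest at 35.7 CPM, against 42.0 to 45.0 CPM in the other 6. Rxra in cortex WTa library 4 was lowest at 27.7 CPM, against 31.9 to 33.9 CPM. Rxrg in striatum WT library 7 was highest at 241 CPM, against 111 to 166 CPM. Ncoa1 in striatum Dio2 double KO library 1 was lowest at 95.6 CPM, against 124 to 144 CPM. Med1 in cortex WT library 4 was highest at 61.4 CPM, against 51.7 to 55.7 CPM. Among tests between groups under the same contrast, Rxrb was higher in Dio2 double KO than in MMI striatum by 0.18 on the log2 scale, and the MMI change of Thra was lower in striatum than in cortex (-0.27).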

How the results depend on the processing

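With DESeq2 and with RLE scaling, all 135 results of the 9 members in 15 comparisons kept their side of the threshold. Called results also kept their direction, which was not compared for changes not called. With all 70 libraries as labelled, the number of members called was 3 in place of 5 in MMI against WT cortex (Thrb and Rxra lost), 1 in place of 2 in Dio2 double KO against WT cortex (Ncoa1 lost), 2 in place of 4 in Dio2 double KO against WT striatum (Thrb and Rxrg lost), 0 in place of 1 in WTa against WT cortex (Med1 lost) and 0 in place of 1 for the tissue interaction in MMI (Thra lost). It was 1 in place of 0 for the interaction in Slco1c1 double KO (Rxrg gained), 6 in place of 7 for striatum against cortex in WT (Med1 lost), and 2 as before in Slco1c1 double KO cortex with other members (Thra lost, Rxrg gained). Calls over all genes also fell at that setting, to 20.7% in MMI cortex, 7.54% in Dio2 double KO cortex, 14.9% in Dio2 double KO striatum, 0.994% in WTa against WT cortex and 2.49% for the MMI interaction. Including the libraries numbered 7 but not cortex library 1 gave the same 2, 0, 0 and 1 for the Dio2 double KO striatum, WTa cortex, MMI interaction and Slco1c1 double KO interaction counts. Including cortex library 1 but not those numbered 7 gave 1 for Dio2 double KO cortex and 0 for WTa cortex. Fitting only the groups compared gave 1 for Dio2 double KO cortex and 1 in place of 2 for Slco1c1 double KO striatum (Rxrb lost), and no filter on low counts also gave 1 there. With a replicate block, WTa against WT cortex had 0 members called; Dio2 double KO against WT striatum had 3 in place of 4 (Rxrb lost) and striatum against cortex in WT had 8 in place of 7 (Ncoa2 gained), and no other member call changed. Within a tissue the samples share only a number. Leaving out each of the 5 cortex Slco1c1 double KO libraries in turn left 2 members called each time (2 to 2). Without striatum WT library 7, an alternative chosen after seeing the data, the counts stayed at 4, 4, 1 and 7 in MMI, Dio2 double KO, WTa and the tissue comparison. Med8 of the Mediator list reversed in Slco1c1 double KO against WTa cortex, at 0.04 with all 70 libraries and 0.09 with cortex library 1 included, against -0.27; the cause was not tested. Depth limits Rxrg in cortex most, where the lowest library had 35 reads.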
